A study of Rattus norvegicus with 2 samples.

Results

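Genes of sterol and fatty acid synthesis under the control of the sterol regulatory element-binding proteins (SREBPs) were compared between LPS-treated and vehicle-treated heart muscle cells. The genes were taken from a list of 31 symbols. A gene was included when a row of the array with a single gene symbol carried its name, and for genes with several rows the row with the highest mean log2 value was used. This gave 30 of 31 genes, out of 22093 genes on the array. The level of the remaining gene, Hmgcs1, was not analysed here, and it enters only the count of promoter windows below. The cells were primary cardiomyocytes from neonatal SD rats that had been kept in culture for several days. The LPS group received lipopolysaccharide (LPS), a component of the bacterial outer membrane, at 100 ng/mL, and the vehicle group received vehicle. RNA of both groups was taken at 24 h and hybridised to 1 Affymetrix array per group. No spread between samples could be estimated, so no test was run, and all differences describe these 2 arrays.

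SREBPs are membrane-bound transcription factors. When sterols in the endoplasmic reticulum are low, the escort protein SCAP carries them to the Golgi, where proteases release the active part, and INSIG proteins hold the complex back when sterols are plentiful. SREBP-2 mainly drives cholesterol synthesis and uptake, while SREBP-1 mainly drives fatty acid synthesis and desaturation. In heart muscle these pathways supply membrane cholesterol and phospholipid acyl chains, whereas the energy of the working heart comes mostly from fatty acid oxidation.

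Values are intensities on a linear scale with no known unit, so a gene is compared only with itself across the arrays, and the sums of markers below are dominated by their brightest rows. Differences are LPS minus vehicle on the log2 scale, where 1 corresponds to 2-fold. All 30 genes lay above the floor of 49.3, the median row, which 14420 genes reached on at least 1 array. The arrays held exactly identical values for 45.9% of those genes. This share fell to 17.7% in the highest of 10 level bins and reached 80.7% in the lowest, and the reason for identical values was not tested. Background shares over all genes below cover all levels together and were not matched to the level of the listed genes. Cardiomyocyte markers were present, with 10 of 10 above the floor and a summed intensity of 1014622 with LPS and 1013930 with vehicle. Markers of other cells were also above the floor. The 9 fibroblast markers summed to 642896 with LPS and 506534 with vehicle, with Dcn at 177435 with LPS and 13840 with vehicle. Of the 9, 4 were higher and 5 lower by any amount, with a median of -0.33. By a size of 2-fold 3 were higher and 3 lower. The 12 macrophage markers, 11 of them above the floor, summed to 33485 with LPS and 28156 with vehicle, with 2 higher and 3 lower by that size. By any amount 3 were higher and 8 lower, with a median of -0.25. Without Adgre1, at 8803 with LPS and 64.4 with vehicle, the sums were 24682 with LPS and 28091 with vehicle. The 7 endothelial markers summed to 2560 with LPS and 1411 with vehicle, and Pecam1, Tie1, Emcn and Vwf were identical and under 100 on both arrays. Kdr was higher, at 1975 with LPS and 715 with vehicle, while Tek and Cdh5 were lower, and without Kdr the sums were 585 with LPS and 696 with vehicle. The 6 smooth muscle markers summed to 151840 with LPS and 416248 with vehicle, and by 2-fold 1 was higher, Rgs5, and 2 were lower, Acta2 and Tagln. Without Acta2 the sums were 41003 with LPS and 104852 with vehicle. The 8 proliferation markers summed to 15446 with LPS and 43701 with vehicle, and 8 of 8 were at least 2-fold lower. No marker was listed at 0. In such bulk RNA, fewer cells of a type and less RNA per cell cannot be told apart, and the part of these markers in the results below was not tested.

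Most of the pathway stood at nearly the same level on both arrays, and the exceptions were few enzymes. Elovl6, the elongase that extends palmitate to stearate, was lower on the LPS array. The stearoyl-CoA desaturases Scd and Scd2, which introduce the double bond into stearate and palmitate, were higher, and so was lanosterol synthase, Lss. By a size of 2-fold, 0 of the 30 genes were higher and 1 was lower, beside 3.69% and 2.63% of all genes. At 1.5-fold the counts were 3 higher (10%) and 1 lower (3.33%), beside 6.05% and 5.67% of all genes. In all, 7 were higher by any amount, 10 lower and 13 identical, against a background of 22.4%, 31.7% and 45.9%. The reason for identical values was not tested, so they do not show that a transcript was unchanged. After subtraction of a smooth (loess) trend on level, 12 of the 13 identical genes lay slightly below 0, by at most 0.06 on the log2 scale. With only 30 genes these shares were near the background, and the median difference was 0 over the 30 genes and 0 over all genes. The 26 genes other than these 4 lay between -0.43 and 0.40.

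**Figure D1:**
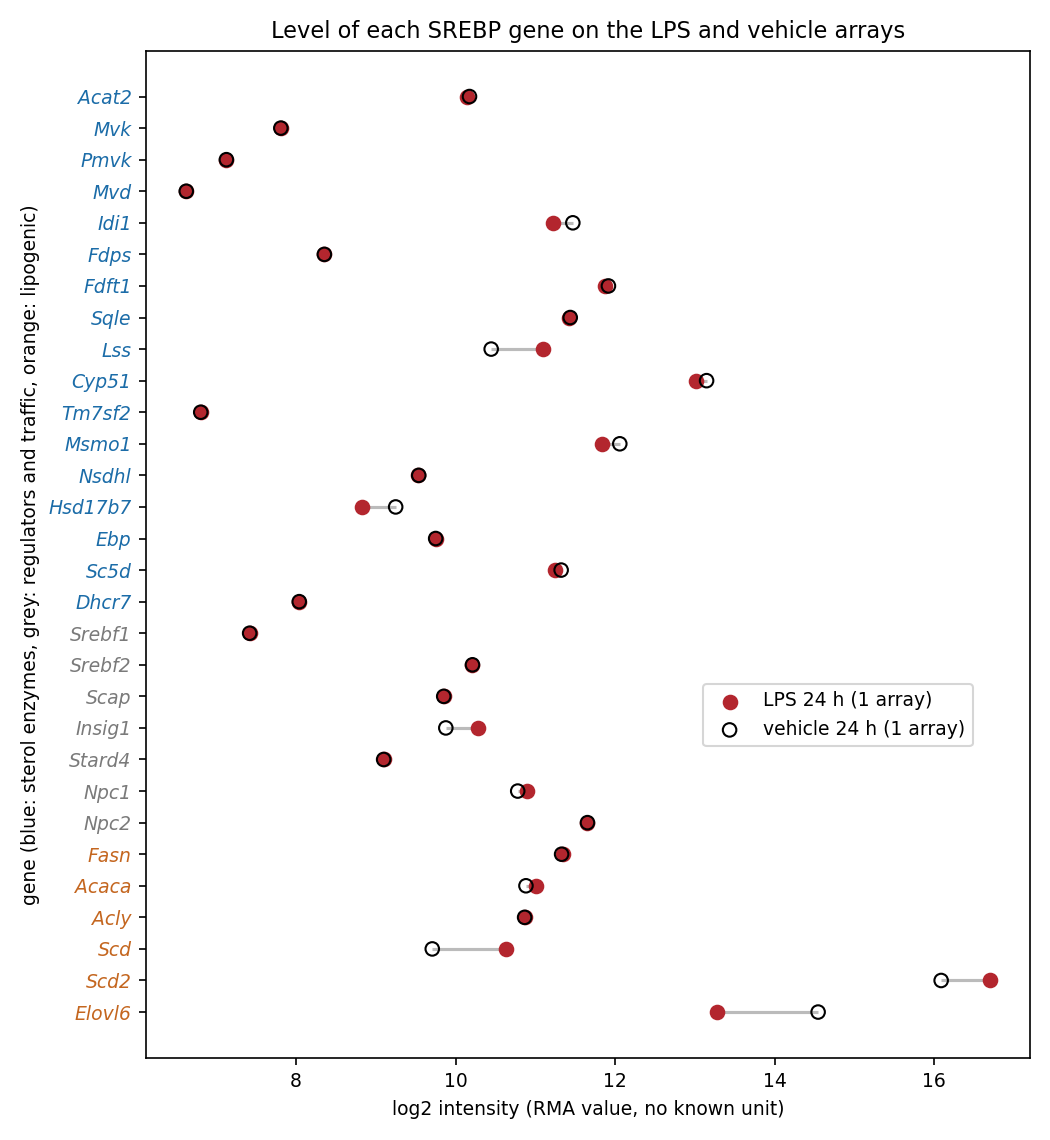
Each line shows 1 gene, with the log2 intensity on the LPS array (filled) and on the vehicle array (open) along the x axis, and genes grouped by role down the y axis. The points coincide for most genes, while Lss, Insig1, Scd and Scd2 lie to the right with LPS and Elovl6, Hsd17b7 and Idi1 to the left.

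Promoters of the higher genes Scd, Scd2, Lss and Insig1 and of the lower Hsd17b7 are shown because they carried the larger differences among genes with a RefSeq promoter window, and Elovl6 is named only. Each run is the 250 bases before the gene start in assembly GRCr8, from 5′ to 3′, and capitals mark CCAAT or its reverse complement ATTGG, the box bound by NF-Y, a known partner of SREBPs.
Scd (chr1:253231732-253231981, minus strand): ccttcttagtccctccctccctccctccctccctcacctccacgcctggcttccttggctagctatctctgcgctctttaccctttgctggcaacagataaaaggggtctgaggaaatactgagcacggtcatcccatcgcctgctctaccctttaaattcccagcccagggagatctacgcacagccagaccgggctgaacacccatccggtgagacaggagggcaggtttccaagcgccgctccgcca
Scd2 (chr1:253118127-253118376, plus strand): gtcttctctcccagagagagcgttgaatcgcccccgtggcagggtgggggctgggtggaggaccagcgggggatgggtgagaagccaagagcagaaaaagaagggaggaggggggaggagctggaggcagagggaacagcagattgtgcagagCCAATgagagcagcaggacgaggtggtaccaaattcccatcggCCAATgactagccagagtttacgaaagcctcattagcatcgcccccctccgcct
Lss (chr20:12118231-12118480, minus strand): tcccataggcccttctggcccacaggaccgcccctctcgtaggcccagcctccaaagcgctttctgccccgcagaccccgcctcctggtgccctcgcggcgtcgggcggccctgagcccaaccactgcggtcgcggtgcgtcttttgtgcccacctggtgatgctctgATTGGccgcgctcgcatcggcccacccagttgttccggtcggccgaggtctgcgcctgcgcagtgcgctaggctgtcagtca
Insig1 (chr4:8057770-8058019, minus strand): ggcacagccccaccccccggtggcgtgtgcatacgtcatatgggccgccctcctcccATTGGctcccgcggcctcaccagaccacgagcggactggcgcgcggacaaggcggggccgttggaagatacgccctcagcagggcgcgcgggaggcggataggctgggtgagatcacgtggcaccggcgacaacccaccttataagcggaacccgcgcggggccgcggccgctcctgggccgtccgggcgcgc
Hsd17b7 (chr13:84722755-84723004, minus strand): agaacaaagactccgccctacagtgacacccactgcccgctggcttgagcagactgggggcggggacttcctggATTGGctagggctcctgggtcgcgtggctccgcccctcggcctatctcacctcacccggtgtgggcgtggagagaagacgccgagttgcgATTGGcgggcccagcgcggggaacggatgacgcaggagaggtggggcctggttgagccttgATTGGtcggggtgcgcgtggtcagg

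The Scd2 stretch held CCAAT with its first base 97 and 54 bases before the start, and the Scd stretch held none. Lss had ATTGG at 82 bases and Insig1 at 193 bases before the start, while Hsd17b7 had it at 176, 86 and 25 bases. Windows of 300 bases, reaching past the start, were found for 24 of the 31 symbols, in 25 windows because Srebf1 has a pair. CCAAT on either strand was found in 19 of these 25 windows (76%), beside 37.5% of all 33469 windows. The E-box CACGTG, which SREBPs can also bind, was found in 3 windows (12%), those of Insig1, Sc5d and Scap, beside 6.42% of all windows. The sterol element core TCACCCCAC and its relaxed form TCACNCCAC, which includes the first, were in 0 of 25 windows on either strand, beside 0.484% and 1.12% of all windows. At shares this low, 0 of 25 windows does not set these genes apart from the rest. Only these forms of the sterol element were searched, so the count does not show that sterol elements are absent. A match in these windows is a description of the letters, and no binding was measured.

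The sterol synthesis enzymes turn acetyl-CoA into cholesterol through mevalonate, squalene and lanosterol. Of 17 genes, 9 were lower, 1 was higher and 7 were identical, beside 31.7%, 22.4% and 45.9% of all genes. Those shares cover genes of all levels, and fewer genes were identical at higher levels. In either direction 0 were past 2-fold, and the median was -0.0055. Of the 9 lower genes, Acat2, Fdft1, Sqle and Nsdhl differed by less than 0.06, the median gap between rows of 1 gene given below. In the mevalonate part, Acat2, the cytosolic thiolase at the entry, had an intensity of 1127 with LPS and 1156 with vehicle. Mevalonate kinase Mvk was at 224, phosphomevalonate kinase Pmvk at 140 and the decarboxylase Mvd at 98.6 on both arrays. Idi1, which interconverts the isoprene units, was 1.19-fold lower, at 2382 with LPS and 2837 with vehicle. Farnesyl diphosphate synthase Fdps was identical at 327. The kinases, the decarboxylase and Fdps thus gave no measured difference, and that of Acat2 was only 1.03-fold. Idi1 was lower by 0.25 on the log2 scale, less than the 90th percentile of that gap between rows, 0.28.

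At the committed squalene steps, squalene synthase Fdft1 stood at 3750 with LPS and 3865 with vehicle. Squalene epoxidase Sqle, a rate-controlling enzyme of the pathway, stood at 2741 with LPS and 2774 with vehicle. They were 1.03-fold and 1.01-fold lower. Lss (Entrez 81681), which closes squalene epoxide into lanosterol, stood apart from its neighbours at 2193 with LPS and 1395 with vehicle, 1.57-fold higher. A second row named Lss gave 991 with LPS and 739 with vehicle, 1.34-fold higher. The mean of both rows was 0.54 on the log2 scale, short of 1.5-fold. A larger positive difference than that of Lss was seen in 799 of the 14420 genes.

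Between lanosterol and cholesterol the enzymes were lower or identical. Hsd17b7 (Entrez 29540), the keto-reductase of the demethylation steps, had 453 with LPS and 608 with vehicle, 1.34-fold lower. The methylsterol oxidase Msmo1 had 3652 with LPS and 4266 with vehicle, 1.17-fold lower. Lanosterol demethylase Cyp51 had 8257 with LPS and 9070 with vehicle, 1.10-fold lower. The desaturase Sc5d had 2427 with LPS and 2563 with vehicle, and the dehydrogenase Nsdhl 741 with LPS and 744 with vehicle. The reductase Tm7sf2 was identical at 112, the isomerase Ebp at 861 and Dhcr7, which makes cholesterol in the final step, at 263. The 5 enzymes with a lower value on the LPS array therefore lie beside 3 with no measured difference. Of these 5, only Hsd17b7 differed by more than 0.28, the 90th percentile of the gap between rows of 1 gene given below.

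**Figure D2:**
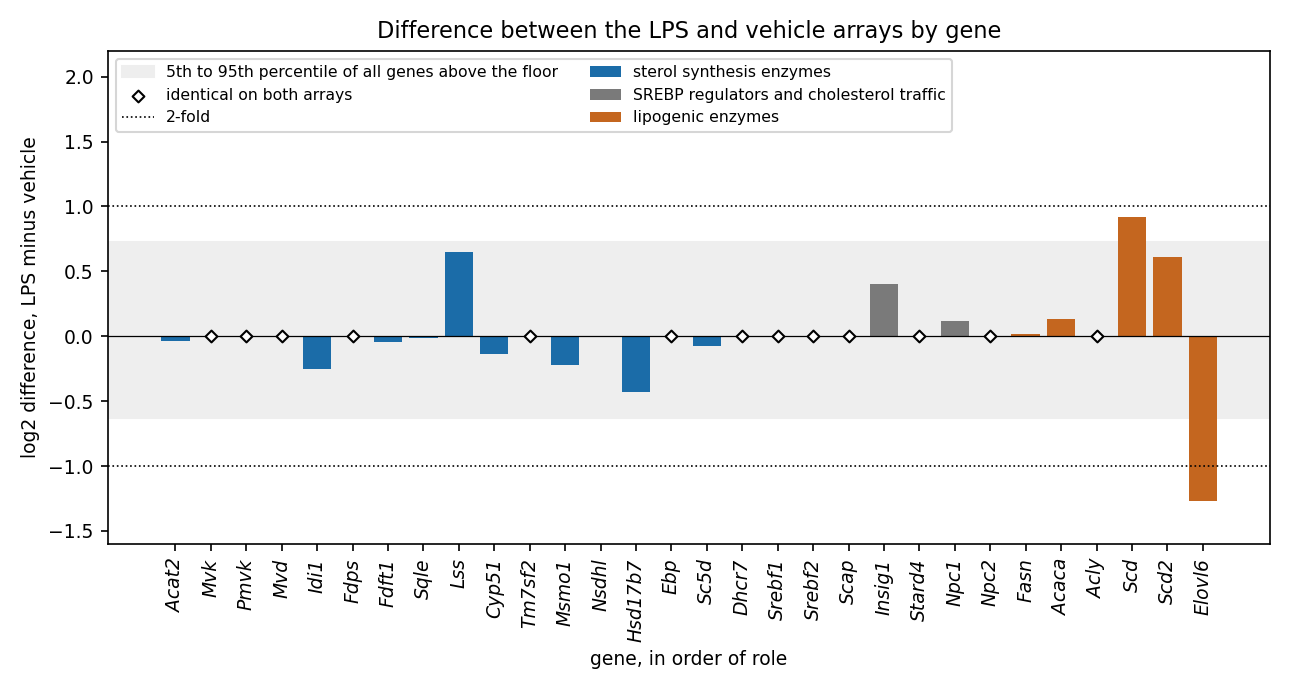
Bars give the log2 difference, LPS minus vehicle, on the y axis for each gene on the x axis, coloured by role, with diamonds for the 13 genes that were identical on both arrays. The grey band is the 5th to 95th percentile of all genes (-0.63 to 0.73), and 28 of the 30 genes lie inside it, with Scd above and Elovl6 below.

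Among the regulators, the transcription factors and their escort had the same value on both arrays. Srebf1, which encodes SREBP-1, was at 171, Srebf2 at 1186 and Scap at 924. Insig1 (Entrez 64194), the retention factor and itself an SREBP target, had 1246 with LPS and 941 with vehicle, 1.32-fold higher. Transcript levels do not show SREBP cleavage, and no protein was measured. Of the cholesterol transport genes, the lysosomal exporter Npc1 had 1906 with LPS and 1757 with vehicle, 1.08-fold higher. Its partner Npc2, identical at 3222, and the sterol carrier Stard4, identical at 548, showed no measured difference. Among all 30 genes, 5 lay under 236, the 75th percentile of rows, on both arrays. Of these 5, 5 were identical, namely Mvk, Pmvk, Mvd, Tm7sf2 and Srebf1. Identical values were common among low genes in general, so this count does not set these genes apart. From the lowest level bin upward, bins 1 to 4 held 80.7%, 68.7%, 60.5% and 52.8% identical genes. The list of 7 regulators and transport genes had 2 higher, 0 lower and 5 identical genes, with a median of 0. Over all genes the shares were 22.4%, 31.7% and 45.9%.

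The lipogenic enzymes split by step. Acly, which makes cytosolic acetyl-CoA from citrate, was identical at 1866. Acetyl-CoA carboxylase Acaca had 2067 with LPS and 1888 with vehicle, 1.10-fold higher. Fatty acid synthase Fasn had 2601 with LPS and 2573 with vehicle, a difference of 0.02 that became -0.04 after subtraction of a loess trend on level. The enzymes that build palmitate thus differed by at most 1.10-fold.

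The enzymes that modify palmitate and stearate differed more, and in opposite directions. Scd (Entrez 246074) had 1584 with LPS and 836 with vehicle, 1.89-fold higher. Its paralog Scd2 (Entrez 83792) had 106072 with LPS and 69638 with vehicle, 1.52-fold higher. Larger positive differences were seen in 569 genes for Scd and 846 for Scd2. Scd and Scd2 are similar in sequence, and how far their probes share signal was not tested. Elovl6 (Entrez 171402) had 9934 with LPS and 23907 with vehicle, 2.41-fold lower. The other rows named Elovl6 were lower by similar amounts, at 4874 with LPS and 12729 with vehicle, 2.61-fold, and at 756 with LPS and 1707 with vehicle, 2.26-fold. A larger negative difference was seen in 235 of the 14420 genes. Over the 6 lipogenic genes the median was 0.07, with 4 higher (3 after subtraction of the loess trend, without Fasn), 1 lower and 1 identical. Beside these few genes, 22.4% of all genes were higher, 31.7% lower and 45.9% identical.

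**Figure D3:**
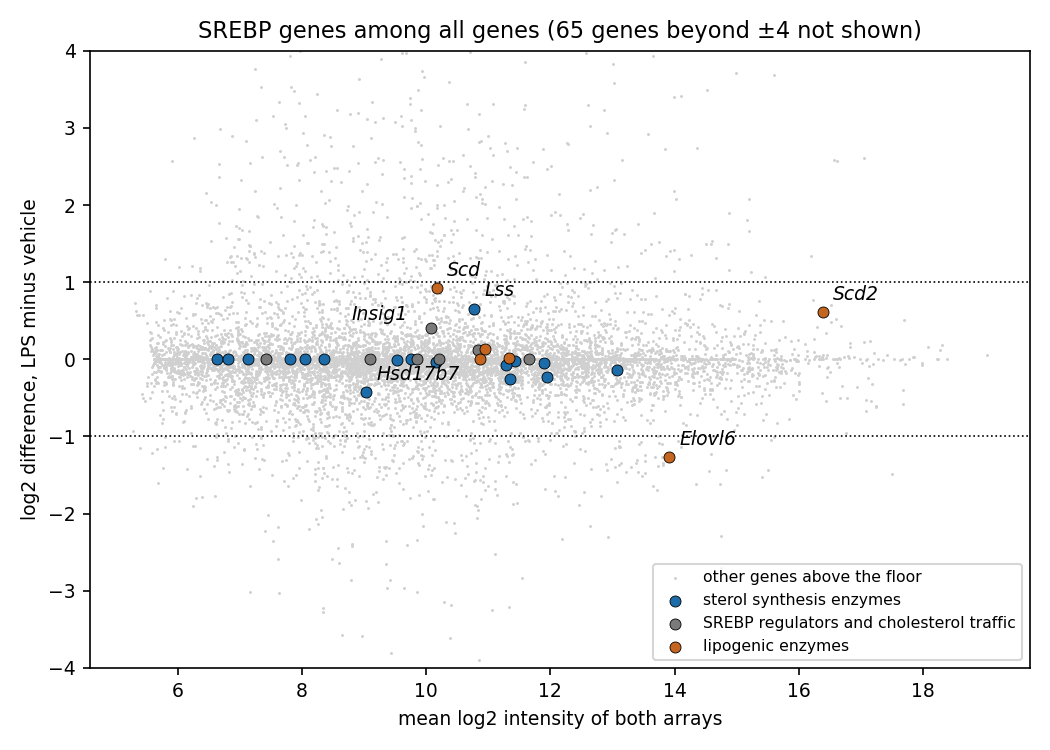
Each point is a gene, with the mean log2 intensity of both arrays on the x axis and the log2 difference, LPS minus vehicle, on the y axis, and dotted lines at 2-fold. The SREBP genes lie along 0 in the grey cloud of other genes, with Elovl6 below the lower line, Scd just under the upper one, and 65 genes outside the plotted range of ±4.

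Rows of the same gene give a view of the measurement on these arrays, though not of the spread between cultures. For 370 genes with at least 2 rows above an intensity of 236, the differences of the highest rows were compared on the log2 scale. They were 0.06 apart at the median and 0.28 apart at the 90th percentile. Rows with identical values on both arrays were kept, which can make these gaps smaller. Where the highest row was past 1.5-fold, the next row had the same direction in 62 of 64 genes. The gap between the Lss rows was 0.23, and the Elovl6 rows spanned 0.21.

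The 4 further lists covered the surroundings of the pathway. Each is short, and its counts stand beside 22.4% higher, 31.7% lower and 45.9% identical over all genes. Of other SREBP targets, 9 of 13 had a row, with 3 higher, 6 lower and a median of -0.08. Acss2, which makes acetyl-CoA from acetate, was the 1 gene at least 2-fold higher, at 1645 with LPS and 822 with vehicle, and it was just short of that size after subtraction of the loess trend. The phosphatidate phosphatase Lpin1 was 1.60-fold higher, at 614 with LPS and 384 with vehicle. Tmem97, a sterol-responsive membrane protein, was 1.67-fold lower, at 337 with LPS and 563 with vehicle. These 3 were the largest of the list.

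Of 8 genes of SREBP processing and enzyme turnover, 6 had a row, with 2 higher, 1 lower and 3 identical. Insig2 was 1.21-fold higher, at 606 with LPS and 500 with vehicle. The Golgi protease Mbtps1 had 3227 with LPS and 3515 with vehicle, and Mbtps2, which cuts within the membrane, had 3744 with LPS and 3503 with vehicle. No member of the list reached 1.5-fold. In the branches of mevalonate outside sterols, 6 of 10 genes were identical, 1 was higher and 3 were lower. Ggps1, which makes the lipid anchor for protein prenylation, was 1.25-fold higher, at 621 with LPS and 498 with vehicle. Pdss1 and Coq2, both of ubiquinone synthesis, were 1.21-fold and 1.13-fold lower. For cholesterol esterification, 3 of 4 genes were above the floor. The esterifying enzyme Soat1 had 9079 with LPS and 8221 with vehicle, the hydrolase Lipa had 1673 with LPS and 1867 with vehicle, and Nceh1 had 712 with LPS and 682 with vehicle.

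**Figure D4:**
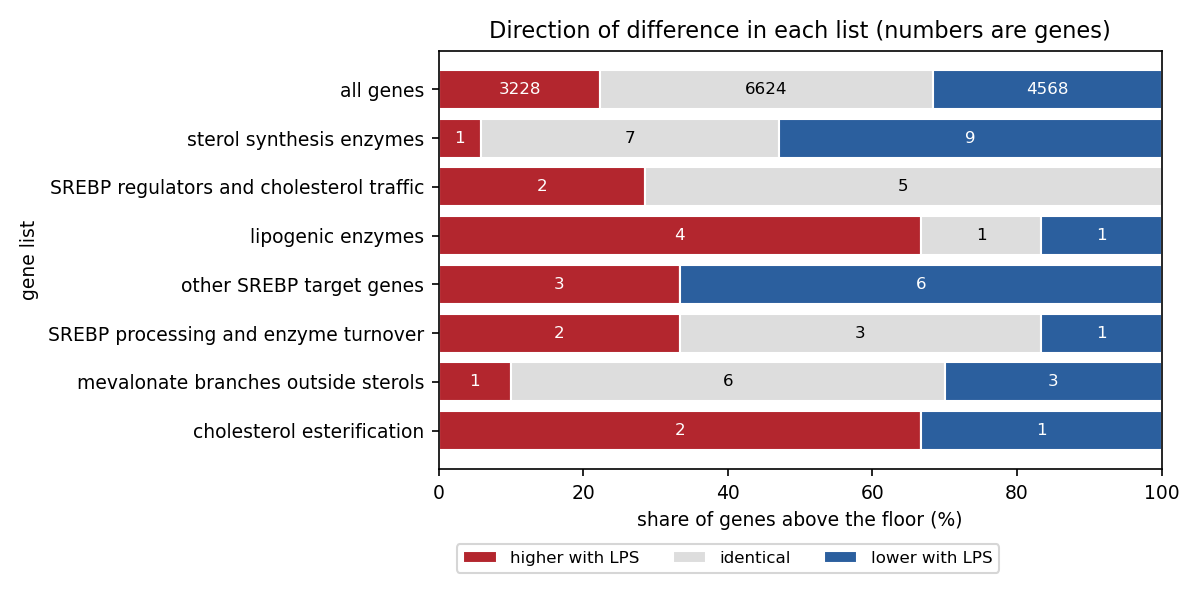
Bars give the share of genes above the floor, in percent on the x axis, that were higher with LPS, identical or lower with LPS, for all genes and each list down the y axis, with gene numbers inside. The sterol enzymes have 1 higher gene and 9 lower, while the lipogenic enzymes have 4 higher, including Fasn, which was lower after subtraction of a loess trend, and 1 lower.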

How the data were processed

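RNA of 1 LPS and 1 vehicle culture sample was measured on Affymetrix arrays, and pooling of cultures is not stated (not given in the sources used here). The authors used RMA in Affymetrix Expression Console 1.4.1, per the submitters' processing notes. The deposited intensity values are on a linear scale, with a median of 49.3 on both arrays. For the build, annotation version and number of arrays processed together: not given in the sources used here.

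Log2 values were taken with Python 3.11.15 and pandas 2.3.3, without a pseudocount or another normalization. Of 68842 rows, 23446 carried 1 symbol in the platform table, giving 22093 genes, and rows with several symbols were not used. The Entrez IDs of all 30 members gave the same symbol in the RefSeq table of GRCr8. Genes were kept when the higher value was at or above 49.3, and counted at 2-fold and 1.5-fold. The counting was tested on simulated data. Alternatives changed the floor, the row used, centring, a loess trend on level (span 0.3, 0 robust iterations), low values and identical values. Promoters came from RefSeq (GRCr8). All members are named, and of each further list the 3 largest differences. The members and lists were chosen with earlier results of these data known. Some listed genes are not reported here. The number of arrays limits the precision.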

Additional observations from a re-analysis of the deposited data

How the results depend on the processing

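No paired analysis was possible because each group has 1 array. Medians of the sterol enzymes ran from -0.06 to -0.0055 over the alternatives, and those of the lipogenic enzymes from 0.01 to 0.13. With identical values left out, the median of the regulators was 0.26, from only 2 genes, Insig1 and Npc1. That of the mevalonate branches was -0.12, from 1 higher and 3 lower genes. Both medians moved because differences of 0 were removed. With the size at 1.5-fold, 872 genes were higher and 818 lower over all genes, and at 3-fold 317 were higher and 113 lower. At 1.5-fold 1 sterol enzyme, 2 lipogenic enzymes and 2 other SREBP targets were higher, and 1 lipogenic enzyme, Elovl6, and 1 other target were lower. At 3-fold 0 lipogenic enzymes were lower and 0 other targets higher. Removal of the loess trend shifted the 30 members by -0.06 to 0.0044, left 0 other targets at least 2-fold higher, changed the sign of Fasn, and put 12 of the 13 identical members slightly below 0. Lss moved to 0.54 with its rows averaged. With 1 array per group, the variation between cultures was not measured.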

Other observations

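The genes of this section were listed after the values of the pathway had been seen. Exceptions are Elovl6 itself and Fads1, Fads2 and Elovl5, which were already among the other SREBP targets. Among the fatty acid elongases, 5 of 7 were above the floor. Elovl7 had 538 with LPS and 1318 with vehicle, 2.45-fold lower, close to the fold of Elovl6. Elovl5, which elongates polyunsaturated chains, had 12198 with LPS and 13961 with vehicle, and Elovl1 had 3245 with LPS and 3269 with vehicle. Elovl4 had 153 with LPS and 165 with vehicle. Fads1 and Fads2, the desaturases of polyunsaturated chains, were 1.23-fold and 1.32-fold lower, at 10272 and 6141 with LPS and 12601 and 8131 with vehicle, opposite in direction to Scd and Scd2. Of the partners in the elongation cycle, the dehydratase Hacd1 was 1.55-fold lower, at 800 with LPS and 1236 with vehicle. Tecr was identical at 11274, Hsd17b12 had 5816 with LPS and 6476 with vehicle, and Hacd3 had 8830 with LPS and 8743 with vehicle.

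Of 5 genes of sterol sensing and export, 5 had a higher value on the LPS array, beside 22.4% of all genes. For 2 of them, Ch25h and Nr1h3, both values lay under 236. The list is short and was made after values had been seen, so its count does not describe sterol export as a whole. Outside it, Apoe was lower, at 453 with LPS and 880 with vehicle, and Abcg4 had 73.3 with LPS and 82.5 with vehicle. The cholesterol exporters Abcg1 and Abca1 were 2.44-fold and 1.93-fold higher, at 1735 and 2806 with LPS and 712 and 1453 with vehicle. Ch25h, which makes an oxysterol that blocks SREBP transport, was 1.83-fold higher, at 175 with LPS and 95.5 with vehicle, and its fold is 1 with low values raised to 236. The oxysterol receptor gene Nr1h2 was 1.19-fold higher, at 1155 with LPS and 969 with vehicle. Nr1h3, the other receptor gene, had 189.5 with LPS and 176 with vehicle, and its fold is also 1 with low values raised.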
